A study of Rattus norvegicus with 6 samples.

Results

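The genes described here encode subunits of mitochondrial ATP synthase and of respiratory complex III, together with factors that assemble these complexes or cytochrome oxidase. They were chosen by name on the array (names beginning with Atp5, Atpaf or Uqcr, the names Atpif1, Cyc1, Bcs1l, Surf1, Sco1 and Sco2, and Cox10 to Cox19), with no use of their measured values, and each gene was represented by its probe of highest mean signal. This gave 38 genes on 49 of the 30367 probes other than controls. The question was whether their mRNA changed when the heart primordium begins to beat. Heart primordia, the tissue of the embryo that becomes the heart, were taken from Wister rat embryos (the spelling of the labels) on embryonic day 10. Primordia whose centre was still flat made up the pre-heartbeat group and those with a raised centre the post-heartbeat group, and the labels name no allele or agent for either. Each group had 3 arrays, named in the labels as biological replicates, and the number of primordia behind 1 array is not given in the sources used here. The whole primordium was used, so that myocardial precursors were measured together with the other cells dissected with them.

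ATP synthase, also called complex V, lets protons flow back across the inner mitochondrial membrane through the ring of c subunits in its Fo sector, and this rotation drives ATP synthesis by the alpha and beta subunits of the F1 sector. Complex III passes electrons from ubiquinol to cytochrome c through its Rieske iron-sulfur protein and cytochrome c1 and pumps protons as it does so. Both complexes mix subunits encoded in the nucleus and in mitochondrial DNA and need dedicated assembly factors, and the adult heart is among the tissues richest in them, whereas the early embryonic heart relies largely on glycolysis.

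None of the 38 genes differed between the groups past the threshold. All 38 were well above background on all 6 arrays, and 0 were called in either direction at a limma adjusted p under 0.05, where 0.14% of the 19297 probes tested were called (23 higher and 4 lower in the post-heartbeat group). At an unadjusted limma p under 0.05 the count was also 0 of 38, against 7.01% of all probes tested. The differences between the group means ran from -0.14 (Atp5hl1) to 0.25 (Cyc1) on the log2 scale, with a median of 0.019 over the members and -0.033 over all probes tested. The post-heartbeat mean was the higher one for 20 of the 38 genes, where it was higher for 44.7% of all probes tested. In 33 genes the difference was smaller than its limma standard error, the exceptions being Cyc1, Uqcrq, Uqcrc1, Uqcrfs1 and Atp5d. That standard error draws on the variance of all probes tested. From the values of the gene alone, the standard error of Cox19 was 0.034, below the size of its difference (-0.11). This also held for some others of the 33 genes, such as Atp5s (standard error 0.071, difference -0.12).

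The 95% interval of the difference lay within 1.5 fold in either direction for 35 of 38 genes, where it did so for 43.1% of all probes tested. Cyc1 with an upper bound of 0.63 on the log2 scale, Cox15 with an upper bound of 0.59 and Sco1 with a lower bound of -0.65 were the exceptions. When the slide was added to the fit as a block (the arrays lay on 2 slides), all 38 intervals lay within 1.5 fold, beside 67.8% of all probes tested. The median standard error of a difference was 0.15 on the log2 scale for the members and 0.19 for all probes tested. For the 25 partner genes outside the name rule, described below, it was also 0.15, and 23 of their 25 intervals lay within 1.5 fold without the block. The members were mostly bright, with 29 of 38 above the 75th percentile on all arrays.

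**Figure D1:**
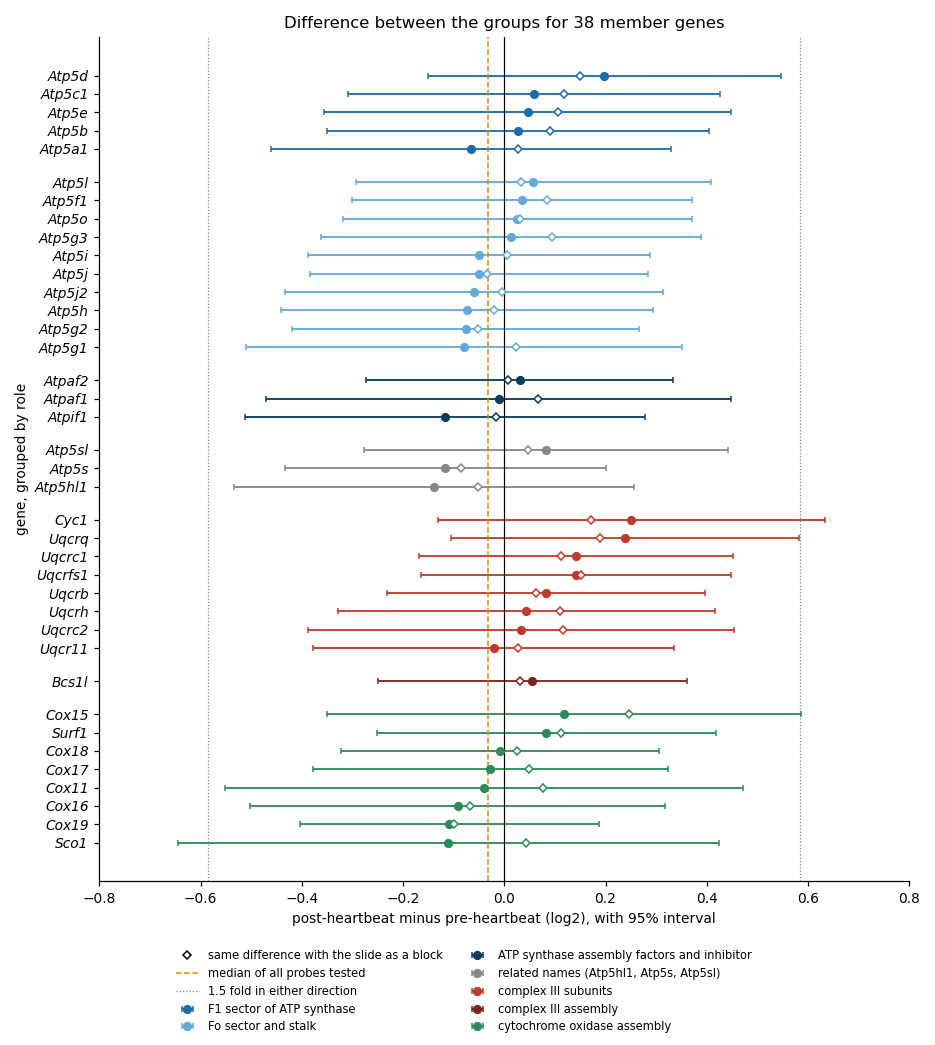
Post-heartbeat minus pre-heartbeat difference of the mean normalized signal (log2, horizontal axis) for the 38 genes, grouped by role on the vertical axis. Filled circles with bars are limma estimates with 95% intervals (3 arrays per group), open diamonds the estimates with the slide as a block, dotted lines mark 1.5 fold and the dashed line the median of all probes tested. Every interval crosses 0, and 7 of the 8 complex III subunits lie to the right of 0.

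Upstream sequence of 5 genes is shown because the nuclear genes of the respiratory chain are known to be controlled through binding sites of NRF1, of the ETS family factor GABP, of YY1 and of SP1. Of the 38 genes, 32 had an entry in the RefSeq promoter table (GRCr8 build, from 250 bases before to 50 bases after the annotated start). The letters searched on both strands were GCGCATGC for NRF1, CCGGAAG for ETS/GABP, AAGATGGC for YY1 and GGGGCGG for SP1, and overlapping matches on opposite strands were counted separately. The NRF1 letters were in 6 of the 32 windows (18.8%), beside 2.47% of all 33469 promoters of the table. The ETS/GABP letters were in 12 (37.5%), beside 8.75%, and the YY1 letters were in 7 (21.9%), beside 3.17%. The SP1 letters were in 8 windows (25%), beside 20.6%. At least 1 of the 4 was in 22 windows (68.8%), beside 29.3% of all promoters. Between the groups, the 22 genes differed by a median of 0.0088 on the log2 scale and the other 10 by a median of 0.020. A match describes these letters only and does not show that a factor binds there.

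Each stretch below runs 5′ to 3′ on the strand of its gene, ends at or before the last base upstream of the annotated start, and has the matches in capitals (build GRCr8). Uqcrq and Uqcrc1 are the members with the largest positive differences among those with a match, Uqcrc2 is the other core subunit beside Uqcrc1, Atp5g2 is a c subunit gene whose overlapping NRF1 matches form a palindrome, and Atp5i holds all 4 motifs.
Uqcrq, chr10:38089979-38090020, minus strand, ETS/GABP: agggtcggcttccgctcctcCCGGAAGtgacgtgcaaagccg
Uqcrc1, chr8:118468164-118468211, plus strand, NRF1: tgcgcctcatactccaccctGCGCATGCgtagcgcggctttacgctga
Uqcrc2, chr1:184599103-184599238, plus strand, ETS/GABP at 2 places: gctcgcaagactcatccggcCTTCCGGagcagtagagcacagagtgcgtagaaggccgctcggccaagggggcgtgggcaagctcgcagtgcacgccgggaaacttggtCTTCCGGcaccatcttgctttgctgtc
Atp5g2, chr7:135678245-135678294, minus strand, NRF1: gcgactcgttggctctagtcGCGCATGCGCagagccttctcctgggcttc
Atp5i, chr14:1464657-1464859, plus strand, YY1, NRF1, SP1 and ETS/GABP in this order: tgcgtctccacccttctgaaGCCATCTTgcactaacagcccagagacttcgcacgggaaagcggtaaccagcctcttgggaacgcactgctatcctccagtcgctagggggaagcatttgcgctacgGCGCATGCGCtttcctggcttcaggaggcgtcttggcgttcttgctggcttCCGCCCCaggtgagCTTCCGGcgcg

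The values below are normalized signals, that is log2 intensity less the 75th percentile of the array, listed for pre-heartbeat replicates 1, 2 and 3 and then post-heartbeat replicates 1, 2 and 3. Positions are those of the probe in the rn4 build given with the array. A signal compares arrays for 1 gene only, as probes differ in brightness for reasons of their sequence.

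Complex III subunits held the largest positive differences, and 0 of 8 were called, beside 0.14% of all probes tested. The difference was positive in 7 of 8, with a median of 0.11 on the log2 scale. Cyc1, which encodes cytochrome c1 (chromosome 7, 114396499 to 114396558), had signals of 4.90, 4.48 and 4.69 in the pre-heartbeat group and 4.92, 5.07 and 4.83 in the post-heartbeat group. Pre-heartbeat replicate 1 lay above post-heartbeat replicate 3, so the groups overlapped. The means were 4.69 ± 0.21 and 4.94 ± 0.12 (SD, n = 3), a difference of 0.25 (SE 0.16) or 1.19 fold, with a limma adjusted p of 0.866.

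Uqcrq, a small nuclear-encoded subunit (chromosome 10, 38889265 to 38889324), had signals of -1.38, -1.36 and -1.55 before and -1.18, -1.05 and -1.34 after heartbeat initiation. All 3 post-heartbeat arrays lay above all 3 pre-heartbeat arrays. The difference was 0.24 (SE 0.15, 1.18 fold, limma adjusted p = 0.866). For Uqcrfs1, the Rieske iron-sulfur protein (chromosome 17, 40433660 to 40433719), the pre-heartbeat signals were 3.09, 3.26 and 3.14 and the post-heartbeat signals 3.36, 3.29 and 3.27. These groups did not overlap either, although pre-heartbeat replicate 2 and post-heartbeat replicate 3 were nearly equal, and the difference was 0.14 (SE 0.13, 1.10 fold, limma adjusted p = 0.866). For both genes the two-sided exact permutation p was 0.1, the smallest that 3 arrays against 3 can give.

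The core subunits line the matrix side of the complex. Uqcrc1 (chromosome 8, 113965183 to 113965352) had signals of 2.74, 2.77 and 2.65 in the pre-heartbeat group and 2.91, 2.92 and 2.76 in the post-heartbeat group. Post-heartbeat replicate 3 fell just below pre-heartbeat replicate 2, and the difference was 0.14 (SE 0.13, limma adjusted p = 0.866). Uqcrc2, the other core subunit (chromosome 1, 179489883 to 179489942), had signals of 2.44, 3.02 and 2.67 before and 2.70, 2.73 and 2.80 after heartbeat initiation. The pre-heartbeat arrays held both its lowest and its highest value, and the difference of 0.03 (SE 0.18, limma adjusted p = 0.962) was much smaller than their spread. The remaining subunits, Uqcrb, Uqcrh and Uqcr11, differed by 0.08, 0.04 and -0.02. Bcs1l, the chaperone that inserts the Rieske protein, differed by 0.06 (SE 0.13, limma adjusted p = 0.908).

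Across all 38 genes, groups without overlap occurred in 3, with Uqcrq and Uqcrfs1 higher and Cox19 lower in the post-heartbeat group. Among all probes tested, 5.38% did not overlap with higher post-heartbeat values and 6.14% with lower ones, and 2 of 38 and 1 of 38 members did.

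The F1 sector genes were close to equal in both groups. The difference was positive in 4 of 5, with a median of 0.05 on the log2 scale. Atp5d, the delta subunit of the central stalk (chromosome 7, 11073061 to 11073120), had signals of 2.88, 2.92 and 2.89 in the pre-heartbeat group and 3.24, 3.16 and 2.89 in the post-heartbeat group. The pre-heartbeat arrays were nearly equal (2.90 ± 0.019, SD, n = 3), while post-heartbeat replicate 3, the only post-heartbeat array on its slide, was at the pre-heartbeat level. The difference was 0.20 (SE 0.15, limma adjusted p = 0.866), and it was 0.32 within 1 slide and -0.02 within the other.

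Atp5a1, the alpha subunit (chromosome 18, 74743024 to 74743083), had signals of 6.56, 6.998 and 6.89 before and 6.62, 6.77 and 6.87 after heartbeat initiation. The lowest and the highest array were both pre-heartbeat. Its difference was -0.07 (SE 0.17, limma adjusted p = 0.917). It took the opposite sign, 0.03, when the slide was in the fit. Atp5b, the catalytic beta subunit, differed by 0.03, Atp5c1, the gamma subunit of the rotor, by 0.06, and Atp5e, the epsilon subunit, by 0.05.

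In the Fo sector and the peripheral stalk, 4 of 10 genes had a positive difference, and all 10 lay between -0.08 and 0.06 on the log2 scale. The c subunit that forms the rotor ring is encoded by Atp5g1, Atp5g2 and Atp5g3, whose products differ in their leader peptides and give the same mature protein. Atp5g1 had signals of 4.56, 5.12 and 5.04 before and 4.80, 4.80 and 4.89 after heartbeat initiation. Atp5g2 had signals of 6.25, 6.57 and 6.46 before and 6.42, 6.37 and 6.27 after. Atp5g3 had signals of 4.44, 4.85 and 4.77 before and 4.67, 4.65 and 4.78 after. In all 3 genes pre-heartbeat replicate 1 was the lowest array and pre-heartbeat replicate 2 the highest, and the post-heartbeat arrays lay between them. The differences were -0.08 (SE 0.18), -0.08 (SE 0.15) and 0.01 (SE 0.16), with limma adjusted p of 0.906, 0.890 and 0.985, and the difference was smaller than its standard error in each. Of the other genes, Atp5f1, Atp5h, Atp5j and Atp5o form the peripheral stalk, and Atp5i, Atp5j2 and Atp5l lie in the membrane beside the ring. The lowest limma adjusted p among these was 0.901 (Atp5h, with a difference of -0.07).

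Atpif1, the inhibitor that blocks reverse rotation of ATP synthase when the membrane potential fails (chromosome 5, 152621810 to 152621869), had signals of 3.42, 3.85 and 3.80 in the pre-heartbeat group and 3.53, 3.48 and 3.70 in the post-heartbeat group. Pre-heartbeat replicate 1 was the lowest of the 6, and the other pre-heartbeat arrays were the highest. The difference was -0.12 (SE 0.17, limma adjusted p = 0.867) and shrank to -0.02 when the slide was in the fit. The assembly factors Atpaf1 and Atpaf2, which chaperone the beta and alpha subunits, differed by -0.01 and 0.03.

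The name rule also took in 3 genes outside the enzyme. Atp5hl1 is annotated as a pseudogene in RefSeq and resembles Atp5h, so that its probe may report Atp5h mRNA. Its signals were 4.48, 4.97 and 4.83 before and 4.57, 4.61 and 4.69 after heartbeat initiation, a difference of -0.14 (SE 0.17, limma adjusted p = 0.866), the lowest of the 38. Atp5s (now Dmac2l) had signals of -3.01, -2.93 and -2.78 before and -3.00, -3.06 and -3.01 after, which is a difference of -0.12 (SE 0.13) and a limma adjusted p of 0.866. Pre-heartbeat and post-heartbeat arrays overlapped for both genes. Atp5sl (now Dmac2), which acts in complex I assembly, differed by 0.08.

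Of the assembly factors of cytochrome oxidase, 0 of 8 were called, beside 0.14% of all probes tested. A positive difference was found for 2 of 8, and the median was -0.03 on the log2 scale. Cox19, a copper-handling protein of the intermembrane space (chromosome 12, 15811836 to 15811895), had signals of 2.33, 2.39 and 2.29 in the pre-heartbeat group and 2.20, 2.23 and 2.26 in the post-heartbeat group. All 3 post-heartbeat arrays lay below all 3 pre-heartbeat arrays, within a range of 0.19 over the 6 arrays. The difference was -0.11 (SE 0.13, 0.93 fold, limma adjusted p = 0.866, two-sided exact permutation p = 0.1). In a Tukey HSD test, which with 2 groups equals the pooled comparison of means, Cox19 was the 1 member of 38 with an unadjusted p under 0.05 and a lower post-heartbeat mean (3.37% of all probes tested), and 0 of 38 were higher (3.46%). With a further threshold of 1.5 fold (0.58 on the log2 scale), 0 of 38 were selected. No member could pass it, as the largest difference of a member was 0.25.

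Sco1, which delivers copper to cytochrome oxidase (chromosome 10, 53763479 to 53763538), varied most over the arrays, with signals of -0.14, 0.66 and 0.42 before and 0.08, 0.16 and 0.37 after heartbeat initiation. The pre-heartbeat arrays spanned the whole range of 0.80, and the difference was -0.11 (SE 0.23, limma adjusted p = 0.897). Cox15, which makes heme A for the oxidase, had the largest difference of the group in the positive direction, 0.12 (SE 0.20, limma adjusted p = 0.878). Surf1, in which loss of function causes Leigh syndrome, differed by 0.08, and Cox11, Cox16, Cox17 and Cox18 lay between -0.09 and -0.01.

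**Figure D2:**
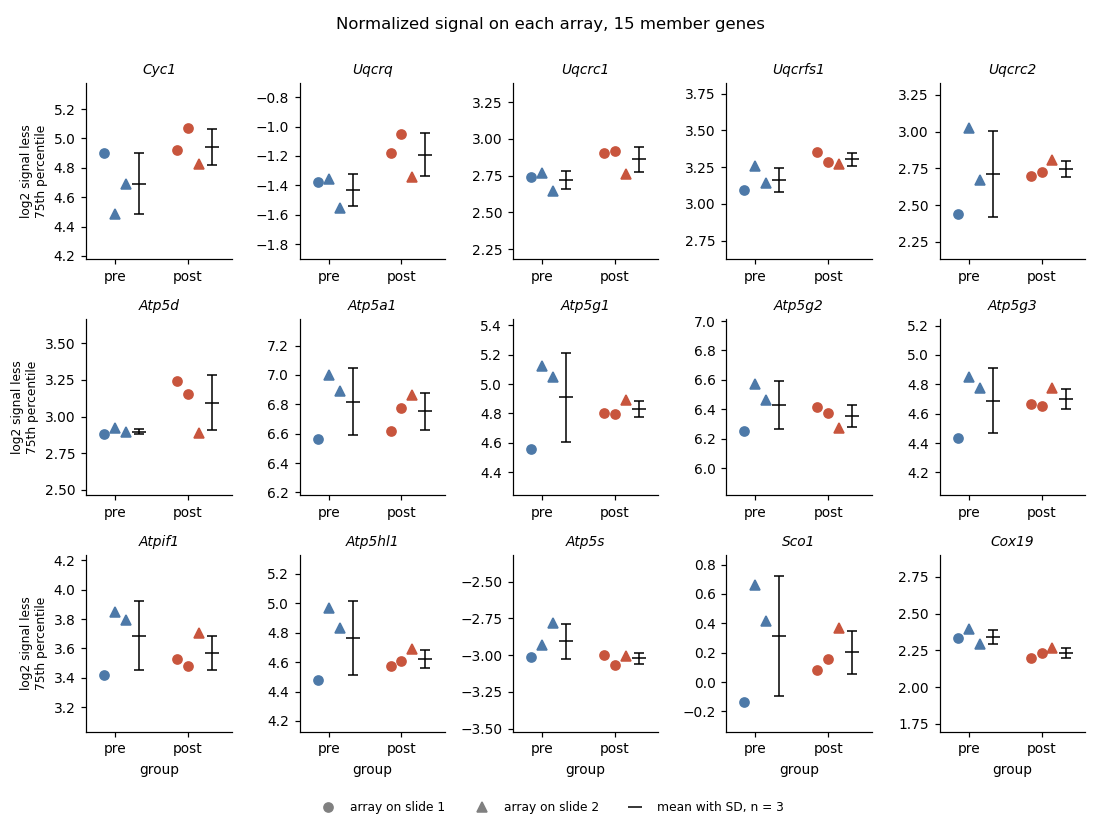
Normalized signal (log2 intensity less the 75th percentile of the array, vertical axis) of 15 genes in the pre-heartbeat and post-heartbeat groups (horizontal axis). Circles and triangles are single arrays on slide 1 and slide 2, bars are the mean with SD (n = 3), and every panel spans the same number of log2 units. The groups do not overlap in Uqcrq, Uqcrfs1 and Cox19, and in the c subunit genes pre-heartbeat replicates 1 and 2 lie on either side of the post-heartbeat arrays.

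Pre-heartbeat replicate 1 was the lowest of the 6 arrays in 26 of 38 genes, beside 24.5% of all probes tested, and pre-heartbeat replicate 2 was the highest in 22 of 38, beside 38.7%. In the 15 subunit genes of ATP synthase, these counts were 13 and 11. Relative to the mean of each gene over the 6 arrays, the median member lay at -0.16 on pre-heartbeat replicate 1 and at 0.16 on pre-heartbeat replicate 2, while the post-heartbeat arrays lay at 0.0087, 0.0013 and 0.0024. Without pre-heartbeat replicate 1, the median difference of the members was -0.10 with 11 of 38 positive, and without pre-heartbeat replicate 2 it was 0.087 with 30 of 38 positive. For the ATP synthase subunits these positive counts were 2 and 13 of 15, and for the complex III subunits they were 5 and 8 of 8. Some lists of cell type markers also stood apart on pre-heartbeat replicate 1. It was the lowest array for 13 of 15 contractile genes (median -0.79 relative to the mean of each gene) and for 6 of 11 cardiac markers (median -0.63). These medians include the difference between the groups. It was the highest for 4 of 5 endoderm markers (median 0.58) and 1 of 2 neural ectoderm markers (median 0.85), beside 2166 of all 19297 probes tested. Of the endothelial, erythroid and paraxial mesoderm markers, it was the lowest for 2 of 6, 1 of 5 and 0 of 3. The part of these markers in the members' values was not tested. Over all pairs of the 38 genes, the median of Pearson's r across the 6 arrays was 0.47. It was 0.68 within the F1 sector, 0.69 within the Fo sector and stalk, 0.46 within the complex III subunits and 0.47 within the cytochrome oxidase assembly factors. It was -0.78 among Atpaf1, Atpaf2 and Atpif1 and -0.0079 among Atp5hl1, Atp5s and Atp5sl, sets of only 3 genes each. Among the partner genes, regulators and contractile genes described below, it was 0.36, 0.39 and 0.89. These points share the arrays and their normalization, so the values are descriptive.

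**Figure D3:**
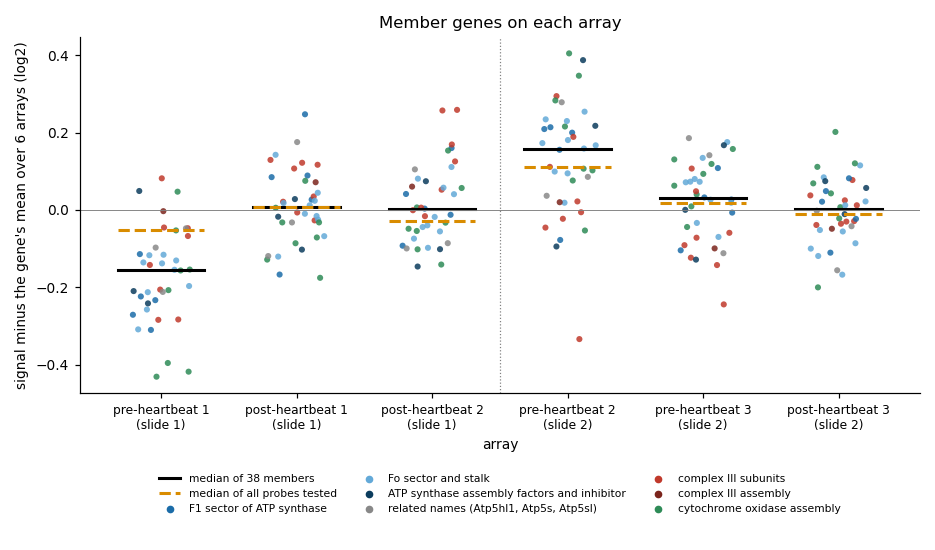
Signal of each of the 38 genes on each array minus its mean over the 6 arrays (log2, vertical axis), with arrays ordered by slide on the horizontal axis. Points are genes coloured by role, solid lines are medians of the members and dashed lines medians of all probes tested. The members sit lowest on pre-heartbeat replicate 1 (median -0.16) and highest on pre-heartbeat replicate 2 (median 0.16).

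Post-heartbeat replicates 1 and 2 shared slide 1 with pre-heartbeat replicate 1, the other arrays were on slide 2, and the first principal component (60.3% of the variance) separated them. Between the slides, 0 of 38 members were called at a limma adjusted p under 0.05, where 16.3% of all probes tested were called, and 2 members (Sco1 and Cox15) had an unadjusted p under 0.05, where 33% of all probes did. The signal was lower on slide 1 for 29 of 38 genes, with a median difference of -0.15 (-0.07 over all probes tested), whereas for Cyc1 it was higher by 0.24. Fitted with this block, 29 of 38 members had a positive difference between the groups, beside 45.8% of all probes tested, with a median of 0.05. Of the 38 genes, 9 changed sign between the fits with and without the block. The number called stayed at 0 of 38, as did that at an unadjusted p under 0.05, where 1.62% and 9.65% of all probes tested passed, and the lowest adjusted p was 0.755 (Cox15).

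Within slide 1 the post-heartbeat mean was higher for 35 of 38 genes (median 0.20), and within slide 2 for 10 of 38 (median -0.08). Over all probes tested, it was higher for 58.2% within slide 1 (median 0.05) and for 41.2% within slide 2 (median -0.05). Each of these contrasts rests on a single array on 1 side, pre-heartbeat replicate 1 on slide 1 and post-heartbeat replicate 3 on slide 2. Genes with the same sign within both slides were 9 higher (Cyc1, Uqcrq, Uqcrc1, Uqcrfs1, Cox15, Surf1, Atp5f1, Cox17 and Cox18) and 2 lower (Cox19 and Atp5s), where 24.7% and 25.2% of all probes tested were so. The 9 of 38 higher genes are near the share over all probes tested, so these signs do not set the members apart. They include the complex III subunits Cyc1 (0.10 and 0.24), Uqcrq (0.26 and 0.11), Uqcrfs1 (0.23 and 0.07) and Uqcrc1 (0.17 and 0.05). These also had the largest differences of that complex over the same arrays, so the 2 views are not independent. Of the 15 ATP synthase subunits, Atp5f1 was positive within either slide.

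**Figure D4:**
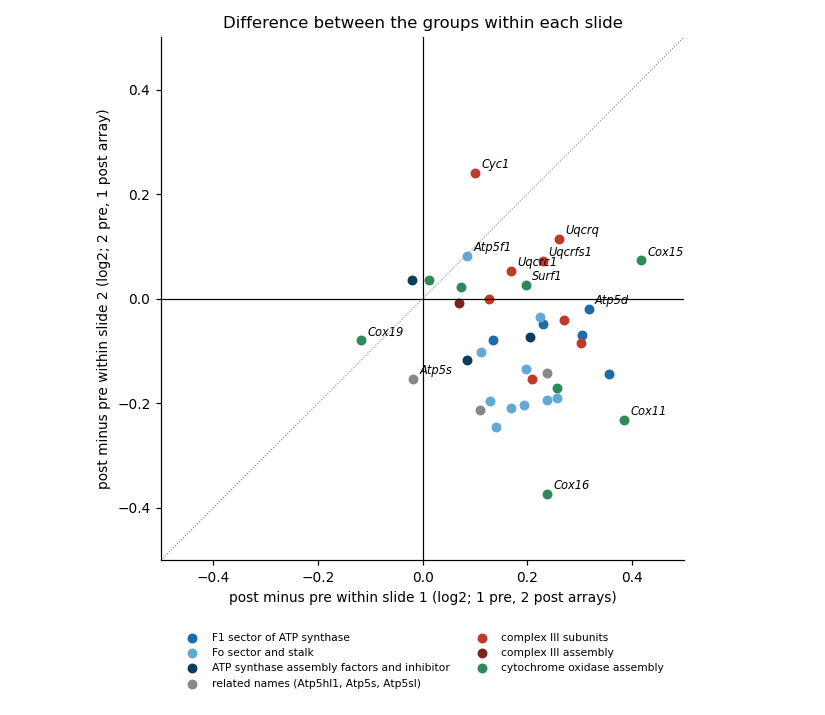
Post-heartbeat minus pre-heartbeat difference within slide 1 (horizontal axis, log2) and within slide 2 (vertical axis, log2) for each of the 38 genes, coloured by role, with the dotted line marking equal differences. Most points lie right of 0 within slide 1 (35 of 38) and below 0 within slide 2, where 10 of 38 lie above it.

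Of 25 tested partner genes outside the name rule, 0 were called, beside 0.14% of all probes tested. A positive difference was found for 10 of the 25, and the median was -0.02 on the log2 scale. Cycs, the cytochrome c that carries electrons away from complex III, had a difference of -0.00095 (SE 0.13). The phosphate carrier Slc25a3 differed by 0.0036 (SE 0.14), and the adenine nucleotide carriers Slc25a4 and Slc25a5, which exchange ADP for the ATP made, by -0.18 (SE 0.15) and 0.10 (SE 0.19). The lowest value was that of Ttc19, which clears fragments of the Rieske protein from complex III, at -0.27 (SE 0.14, limma adjusted p = 0.845).

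Among 25 tested genes listed as regulators of mitochondrial gene expression, 0 were called, beside 0.14% of all probes tested, and 9 had a positive difference (median -0.09). The list and its counts include Twistnb (-0.32, SE 0.30), which encodes a subunit of RNA polymerase I and is not such a regulator. Nrf1 differed by -0.25 (SE 0.15, limma adjusted p = 0.866) and Gabpa, a subunit of GABP, by -0.26 (SE 0.16, limma adjusted p = 0.866). Tfam, which packages and transcribes mitochondrial DNA, differed by -0.09 (SE 0.14, limma adjusted p = 0.869). The coactivator Ppargc1b had the largest difference of the list. Its signals were -5.0004, -5.74 and -4.68 in the pre-heartbeat group and -4.01, -4.04 and -3.95 in the post-heartbeat group, with no overlap. This difference of 1.14 (SE 0.27) did not pass the threshold, as the limma adjusted p was 0.237 without and 0.114 with the block for the slide. The probe was dim and well above background on 5 of the 6 arrays, so that it passed the filter through 1 group only. Among the 25 regulators, groups did not overlap in 1 higher (Ppargc1b) and 2 lower (Tfb2m and Mterf), beside 5.38% and 6.14% of all probes tested.

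Contractile genes of striated muscle differed by more in the same samples. Of 15 tested, 15 had a positive difference, with a median of 0.84 on the log2 scale. In that list 2 were called (Myl2 and Tnni3), beside 0.14% of all probes tested, and 9 with the slide block, beside 1.62%. The 11 cardiac markers, several of which are in that list too, were positive in 11 of 11 with a median of 0.56, but 0 of 11 were called (lowest limma adjusted p = 0.115), and 2 with the slide block. Their mean level ran from 2.58 to 2.94 on the pre-heartbeat arrays and from 3.30 to 3.34 on the post-heartbeat arrays. All 11 were well above background in the tissue. In whole primordia, fewer or more cells of a type and less or more RNA per cell cannot be told apart. The forebrain marker Otx2 fell by 1.56 on the log2 scale (limma adjusted p = 0.0199). Sox2, the other neural ectoderm marker tested, differed by -0.21 (SE 0.42, limma adjusted p = 0.896). Thus 1 of 2 was called, beside 0.14% of all probes tested. Of 6 endothelial, 5 erythroid, 5 endodermal and 3 paraxial mesoderm markers tested, 0 were called, beside the same share. A positive difference was found for 1, 3, 1 and 3 of them in this order. The largest differences of these lists were those of Kdr (-0.55, SE 0.14), Hbb (1.22, SE 0.35), Ttr (-0.58, SE 0.17) and Tbx6 (0.58, SE 0.34). Equal levels are therefore not shown by 0 called.

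**Figure D5:**
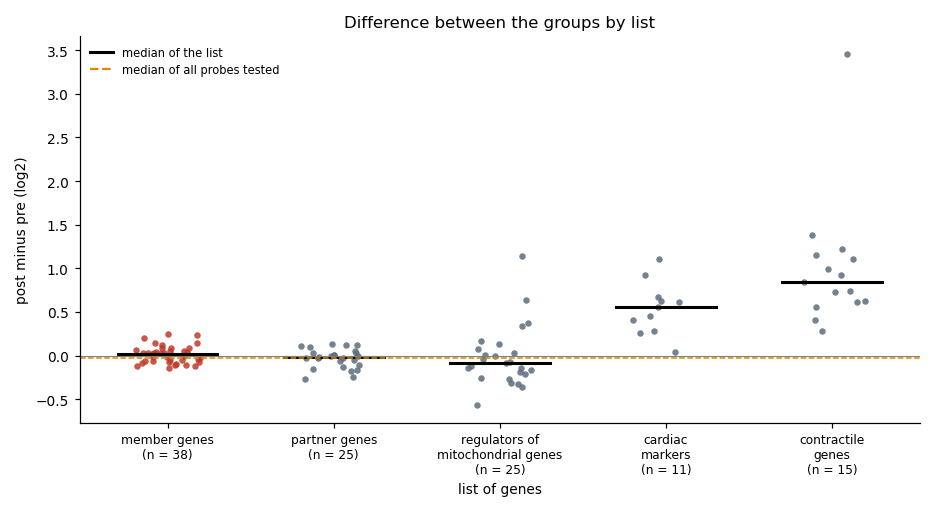
Post-heartbeat minus pre-heartbeat difference (log2, vertical axis) of each tested gene in 5 lists (horizontal axis, with the number of genes). Points are genes, solid lines are medians of the lists and the dashed line is the median of all probes tested. The 38 members lie between -0.14 and 0.25, while all 15 contractile genes lie above 0 with a median of 0.84.

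Several limits of the probes touch these values. Of the 38 genes, 8 had more than 1 tested probe, and for 2 of them (Atp5l and Uqcr11) the probes differed in sign, the largest gap between probes of a gene being 0.21 on the log2 scale. The annotation names 40 pseudogenes for 16 of the genes, 8 of them for Atp5l, and a probe may also report copies that are transcribed. Atp5e was the only member with no rn4 position in the array annotation.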

How the data were processed

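RNA of 3 pre-heartbeat and 3 post-heartbeat heart primordium samples was labelled with Cy3 by the authors and hybridized to 1-colour Agilent rat arrays, 1 array per sample. The deposited scanner files, read with Feature Extraction 10.7.3.1, hold background-subtracted spot intensities that had not been scaled across arrays. Linear ratios from the authors, shifted to the 75th percentile of each array and divided by a baseline per probe, were used here as an alternative.

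Control spots and outlier spots were left out. The log2 intensity less the array's 75th percentile was averaged over the spots of a probe, and the tested set was the 19297 probes that were well above background throughout 1 group or both (3 arrays each). Groups were compared with limma 3.58.1 in R 4.3.3 (with the data.table package, version 1.17.8) with Benjamini-Hochberg adjustment over all probes tested and a threshold of 0.05, and single genes also by exact permutation of the arrays (10 splits). Standard errors and intervals are those of limma, which draws the variance of each probe towards a value common to all probes tested. The fit was tested on simulated data. Python 3.11.15 with numpy 2.4.6, pandas 2.3.3 and matplotlib 3.10.9 did the rest. Between 39375 and 41327 of 58717 spots per array were well above background and 0 were saturated, and precision is limited by the number of arrays. Of the 38 genes, 34 were matched to RefSeq by accession and 4 by symbol or synonym, and 18 have since been renamed.

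Per-array values are given for the 5 largest differences in each direction, for Atp5a1 and Uqcrc2, for the c subunit genes and Atpif1, and for any member with an unadjusted p under 0.05 or not well above background. The value of Ppargc1b on each array was added after its difference was seen. The name rule for the members used no measured values. Even so, the members, lists of genes and motifs were chosen with earlier results of these data known. Alternatives covered the background correction (normexp, offset 50), normalization, filters, variance model, probe choice, slide or replicate number as a block, and leaving out each array, with combinations of the slide block with another choice added after the data had been seen. The comparison of c subunit proteins was not run.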

Additional observations from a re-analysis of the deposited data

How the results depend on the processing

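No member was called under any of the 25 alternatives, and the lowest adjusted p of a member in any of them was 0.36. In several of them few or no probes were called, so that 0 members says little there. Of all probes tested, 0 were called in the Tukey HSD test, without pre-heartbeat replicate 3 and without post-heartbeat replicate 1 or 2. The most were called with the slide block and without pre-heartbeat replicate 2, at 297 higher and 139 lower. The median difference of the members was small enough for its sign to turn with single arrays. It was 0.019 with all arrays and ran from -0.10 (without pre-heartbeat replicate 1) to 0.087 (without pre-heartbeat replicate 2) when each array was left out, and it was -0.010 without post-heartbeat replicate 3. With the slide as a block as well, a choice added after the data had been seen, it ran from -0.080 without pre-heartbeat replicate 1 to 0.20 without post-heartbeat replicate 3. With all arrays, the slide block gave 0.046, against 0.056 under quantile normalization, 0.0046 under normexp and 0.00099 with the authors' ratios. The median difference of all probes tested was then -0.017, -0.023, -0.043 and -0.051. Cyc1, Uqcrq, Uqcrc1, Uqcrfs1, Cox19 and Atp5s kept their sign in all 25 alternatives, and Atp5a1 kept it in 15. Between the slides, 1 member was called under normexp (Sco1, adjusted p = 0.0482) and 1 with an intensity trend (Sco1, adjusted p = 0.0416), against 0 as reported and in the other 4 alternatives run for this comparison (quantile normalization, another percentile and both filters). As reported, 16.3% of all probes tested were called between the slides, and their share under these alternatives is not given here. The correlations of same-numbered deviations were 0.65, -0.28 and 0.49 for replicates 1, 2 and 3. Whether the replicate numbers pair the samples cannot be told from them. Same-numbered arrays shared a slide for replicates 1 and 3 but not for replicate 2. The replicate block left the members' median at 0.019 and called 0 members, while it called 95 probes higher and 49 lower of all probes tested.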
